A study of Mus musculus with 6 samples.

Results

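The interferon response and MHC class I genes are a set of 43 genes, found by symbol in a table of 24411 genes from mouse cortical neuron cultures. All 43 symbols were in the table, 30 had enough counts to be tested, and 13 did not. The cultures were treated either with mouse α-synuclein preformed fibrils (PFF, aggregates of the protein assembled outside the cell) or, as the control, with phosphate-buffered saline (PBS), with 3 libraries in each group. All were grown from cortical tissue of 18-day-old embryos. PFF were given at 3.45 µM on day 10 in vitro, and total RNA was taken 8 days later, on day 18 in vitro. The labels name no mouse strain, no genetic alteration and no agent other than PFF and PBS. Whether each library stands for its own culture is not stated, so p-values cover only the spread among these libraries, which may be technical.

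Type I interferons are secreted when cells sense foreign or misplaced nucleic acid through receptors such as RIG-I and MDA5. They bind the receptor made of IFNAR1 and IFNAR2, and a complex that includes STAT2 and IRF9 then binds a short DNA element, the interferon-stimulated response element (ISRE), in front of the interferon-stimulated genes. Among the products are antiviral effectors and the MHC class I molecules, which carry peptides to the cell surface for inspection by T cells. In the brain, microglia and astrocytes make much of this response, and neurons keep MHC class I low but can raise it.

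Of the 30 tested genes, 4 rose in PFF cultures and 2 fell at an adjusted p under 0.05 (13.3% and 6.67%, together 20%). Across all 13919 genes tested, 3.98% rose and 2.6% fell, together 6.58%. The risers were the antiviral effector genes Bst2 and Oas1a and the MHC class I genes H2-D1 and B2m, and the fallers were the antiviral effector genes Ifitm3 and Mx2. No PBS library of Oas1a reached the level needed for testing, so it counts among the 30 because of its PFF libraries. With no low-count filter all 43 were tested and the same 6 passed, beside 1132 of all 18964 genes tested. The median log2 fold change of the 30 (PFF over PBS, here and below) was 0.07, against −0.00 over all genes tested, and 19 of the 30 (63.3%) were above 0, as were 49.9% of all genes. The groups did not overlap for 12 of them, with the PFF libraries above in 8 and below in 4, which is 26.7% and 13.3%. Over all genes tested these shares were 13.4% and 11.6%. Without PFF replicate 2 or without PBS replicate 3, 3 genes passed in place of 6 (Bst2, H2-D1 and B2m, all higher). Of the 916 genes that passed among all genes tested, 405 and 624 passed again in these settings, in turn. With replicates 1 and 2 only, the same 6 passed, of 31 tested. In that setting 2394 of all 13953 genes tested passed, so these shares were close to each other.

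**Figure D1:**
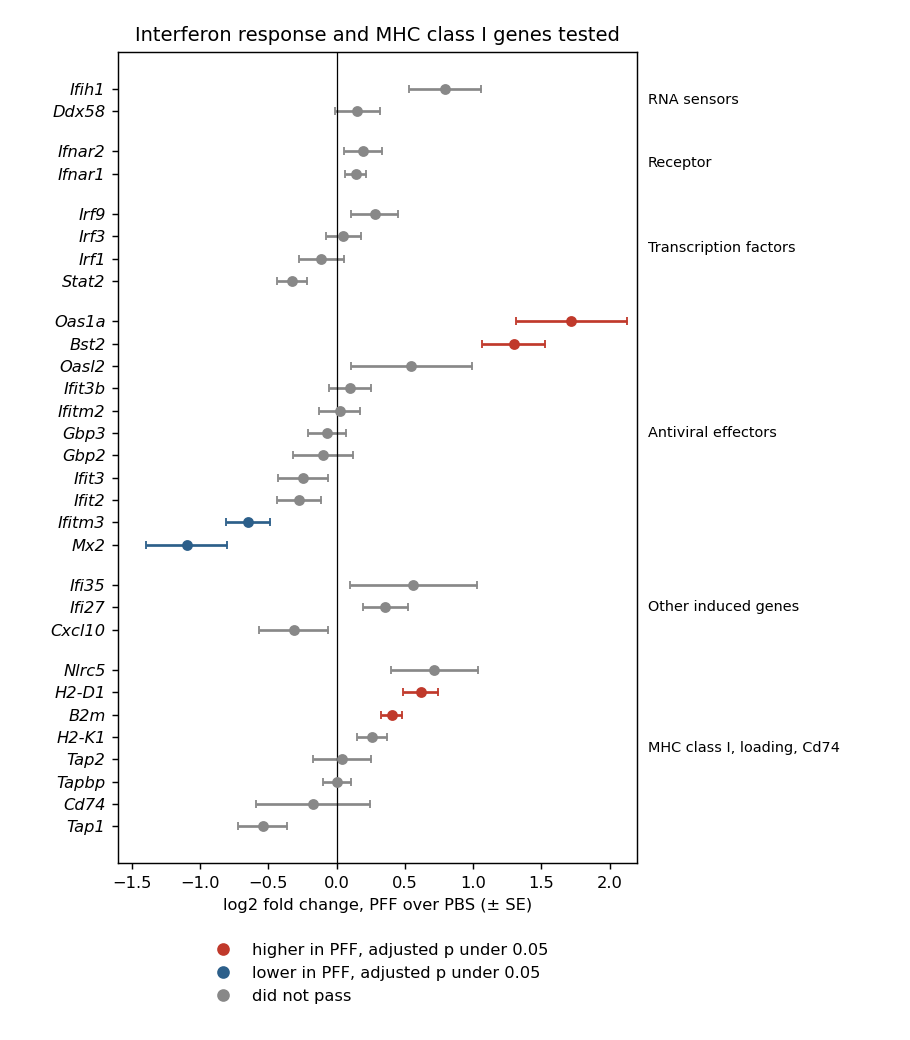
Log2 fold change, PFF over PBS, of the 30 tested genes, grouped by role, with the standard error as bars. Within the antiviral effectors Oas1a (1.72) and Bst2 (1.30) lie at the upper end and Mx2 (−1.10) and Ifitm3 (−0.65) at the lower end.

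To show the element that defines this pathway, the 160 bases in front of the RefSeq start of 5 genes follow, 5′ to 3′ along the gene (RefSeq, GRCm38.p6). Oas1a, Bst2 and B2m rose and carry a match to the core of the element, and Isg15 and Ifit3 carry matches as well but are, in turn, a gene with too few counts to test and a gene that did not pass. Capitals mark matches to GAAANNGAAA (N is any base) on either strand, and matches that overlap are run together.
Oas1a, chr5:120907526-120907685, minus strand: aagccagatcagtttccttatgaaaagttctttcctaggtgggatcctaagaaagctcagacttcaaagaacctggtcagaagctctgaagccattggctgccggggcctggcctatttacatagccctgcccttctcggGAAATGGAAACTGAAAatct
Bst2, chr8:71537473-71537632, minus strand: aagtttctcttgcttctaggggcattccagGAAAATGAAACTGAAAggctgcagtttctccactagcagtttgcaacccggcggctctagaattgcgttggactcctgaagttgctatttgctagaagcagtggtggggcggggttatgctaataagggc
B2m, chr2:122147527-122147686, plus strand: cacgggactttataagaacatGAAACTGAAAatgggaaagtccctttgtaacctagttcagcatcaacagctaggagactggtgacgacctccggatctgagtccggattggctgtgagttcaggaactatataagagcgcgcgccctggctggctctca
Isg15, chr4:156200819-156200978, minus strand: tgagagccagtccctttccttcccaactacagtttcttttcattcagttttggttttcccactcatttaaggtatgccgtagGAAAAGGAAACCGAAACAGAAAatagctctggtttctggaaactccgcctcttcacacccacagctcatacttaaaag
Ifit3, chr19:34583369-34583528, plus strand: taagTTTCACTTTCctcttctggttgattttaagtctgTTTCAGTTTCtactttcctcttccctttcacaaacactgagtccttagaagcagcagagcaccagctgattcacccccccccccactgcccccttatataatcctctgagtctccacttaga

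RefSeq promoter entries were matched by symbol for 33 of the 43 genes. Zbp1, Usp18, Oas2, Mx1, Mx2, Ifi27, Rtp4, Tap2, Nlrc5 and Cd74 were not matched. In the 250 bases before the start, GAAANNGAAA was found on either strand in 14 of the 33 (42.4%) and in 936 of 27025 genes with an entry (3.46%). Genes with and without a match to this string were among those that did not pass. Of the 10 tested genes with a match, 3 rose and none fell, with log2 fold changes between −0.33 (Stat2) and 1.72 (Oas1a) and a median at −0.02. Oas1a, 1 of the 3, was tested because of its PFF libraries. Over all genes tested 3.98% rose and 2.6% fell. Of the 15 tested genes whose window held no match, 1 rose (H2-D1) and 1 fell (Ifitm3), with a median of 0.15. A match describes letters in this window and is not evidence of a bound site. Only this exact string was searched, so a window without a match may still hold a variant of the element.

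The identity of the cultures was read from marker lists. All 12 neuron markers were detected and tested, and their summed level was 5539 to 6091 CPM (TMM-normalised counts per 1000000) in PFF libraries and 5327 to 5649 CPM in PBS libraries. Astrocyte markers were also plentiful, at 3572 to 4563 CPM in PFF libraries and 3685 to 4804 CPM in PBS libraries, so the cultures were not of neurons alone. The 22 microglia markers summed to 678 to 826 CPM in PFF libraries and 249 to 381 CPM in PBS libraries. Of their 19 tested members 17 rose and none fell, at a median log2 fold change of 1.32. Tmem119 and Siglech were near 0 (at most 6 and 1 counts in any library). The 10 oligodendrocyte lineage markers summed to 998 to 1333 CPM in PFF libraries and 888 to 1033 CPM in PBS libraries. All 10 passed, 5 higher and 5 lower. Of the 9 astrocyte markers 3 fell and none rose, and of the 12 neuron markers 2 rose and none fell. Over all genes tested 3.98% rose and 2.6% fell. Lymphocyte and dendritic cell markers summed to 7.81 to 11.3 CPM in PFF libraries and 7.47 to 10.49 CPM in PBS libraries, and 4 of the 11 had no count anywhere. The part of the microglia rise, and of the other marker changes, in the values below was not tested. In bulk RNA, more cells of a type and more RNA per cell cannot be told apart. Library totals ran from 9224974 to 10742383 counts, and 3 counts correspond to 0.289 to 0.325 CPM. Replicate 3 of both groups stood apart from the other libraries: counts of replicates 1 and 2 differed with a chi-square per degree of freedom of 2.90 in PFF and 2.698 in PBS, and pairs with replicate 3 gave 7.18 to 9.196.

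Antiviral effectors moved in both directions. Bst2 encodes tetherin, a membrane protein that holds budding virus particles to the cell surface. It had 5.88, 4.60 and 7.32 CPM in PFF libraries 1, 2 and 3, against 2.06, 2.23 and 2.89 CPM in PBS libraries 1, 2 and 3. The lowest PFF library was well above the highest PBS library. The log2 fold change was 1.30 ± 0.23 (SE, n = 3 per group, edgeR adjusted p = 0.003497). Bst2 passed in all 13 alternative settings in which it was tested, with adjusted p of at most 0.0262. The gene lies on chromosome 8 from 71534255 to 71537456 (GRCm38, GENCODE vM21), and its exons overlap no other annotated gene. As measured beside it, the microglia markers stood at a median of 1.32 on the same scale.

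Oas1a, an oligoadenylate synthetase that is activated by double-stranded RNA and feeds the RNA-degrading enzyme RNase L, was scarce in all libraries. It had 1.35, 2.25 and 1.78 CPM in PFF libraries and 0.866, 0.291 and 0.481 CPM in PBS libraries. The groups did not overlap, but the highest count in any library was 22.6, and no PBS library reached the level of the low-count filter. Oas1a was thus tested because of its PFF libraries. With no low-count filter it passed as well (1.71 ± 0.42, adjusted p = 0.00739). Its log2 fold change was 1.72 ± 0.41 (adjusted p = 0.0232), and it did not pass without PFF replicate 2 (adjusted p = 0.128), PBS replicate 2 (0.0916) or PBS replicate 3 (0.0646), or in DESeq2 (0.0654). Its near-identical paralogs may share its reads, since 2 of its 6 values were not whole numbers. The related synthetase genes Oas2 and Oas3 had at most 2 and 3 counts in any library. Oasl2, a related gene, ranged from 1.58 to 4.24 CPM in PFF libraries and from 0.770 to 2.49 CPM in PBS libraries, and its groups overlapped (0.55 ± 0.44, adjusted p = 0.520).

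Ifitm3 encodes a membrane protein that keeps viruses from fusing out of endosomes. It had 8.58, 9.50 and 9.39 CPM in PFF libraries, against 15.2, 10.97 and 16.9 CPM in PBS libraries. All 3 PFF libraries lay below all 3 PBS libraries, and the spread was wider in PBS (SD 3.06) than in PFF (SD 0.503). The log2 fold change was −0.65 ± 0.16 (adjusted p = 0.0279). Adjusted p was 0.0896 without PFF replicate 1, 0.0969 without PFF replicate 2, 0.119 without PBS replicate 1 and 0.0945 without PBS replicate 3, and the direction stayed the same in each. Its neighbour in the family, Ifitm2, did not pass, with 9.74, 9.40 and 11.6 CPM in PFF libraries and 11.3, 10.7 and 8.37 CPM in PBS libraries (0.02 ± 0.15, adjusted p = 0.956). Of the exonic bases of Ifitm2, 40.9% lie within another GENCODE vM21 gene model on the same strand. All its values were whole, and the annotation used for counting is not given. Whether the overlap affected its counts is not known. Ifitm3, on chromosome 7 from 141009586 to 141010770, has no such overlap.

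Mx2, which encodes a dynamin-like GTPase that restricts viruses in many species, is annotated by GENCODE in the mouse as a polymorphic pseudogene. It had 0.964, 0.783 and 1.19 CPM in PFF libraries and 2.27, 2.14 and 1.92 CPM in PBS libraries. The groups were separate at this low level, with at most 21.9 counts in a library. The level of the low-count filter was reached by 2 PFF and 3 PBS libraries. Its log2 fold change was −1.10 ± 0.30 (adjusted p = 0.04196). The call was lost in DESeq2 (adjusted p = 0.204) and when PFF replicate 1 (0.122), PFF replicate 2 (0.190), PBS replicate 1 (0.141), PBS replicate 2 (0.104) or PBS replicate 3 (0.0663) was left out. Mx1, the better known nuclear member, had at most 9 counts in any library.

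**Figure D2:**
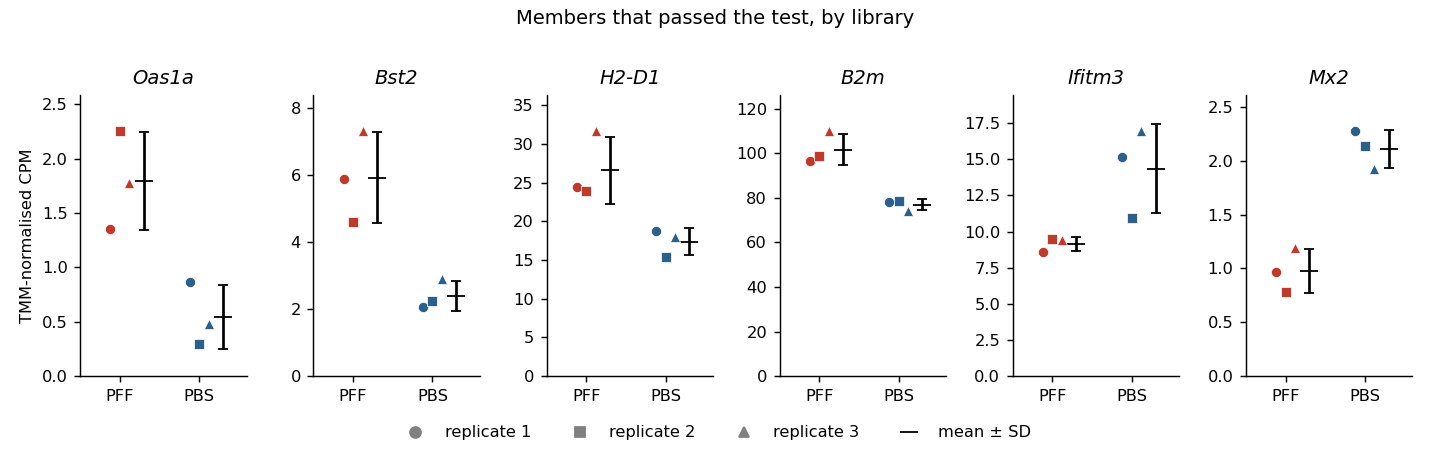
TMM-normalised CPM of the 6 genes that passed the test, per library, with PFF left of PBS, replicates marked by shape and the mean ± SD beside them. For Oas1a, Bst2, H2-D1 and B2m every PFF library lies above every PBS library, and for Ifitm3 and Mx2 every PFF library lies below. Axes start at 0 and differ between panels.

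The Ifit genes, whose products bind viral RNA and are among the most strongly induced interferon targets, did not pass. Ifit2 had 9.35, 7.93 and 12.1 CPM in PFF libraries and 12.02, 10.49 and 12.99 CPM in PBS libraries (−0.28 ± 0.16, adjusted p = 0.350). Ifit3 had 9.64, 7.34 and 8.60 CPM in PFF libraries and 12.3, 7.57 and 10.6 CPM in PBS libraries (−0.25 ± 0.18, adjusted p = 0.465). The groups overlapped for both genes. Ifit3b, a near-identical copy of Ifit3, was at 7.71, 6.95 and 8.11 CPM in PFF libraries and 7.90, 7.09 and 6.35 CPM in PBS libraries (0.10 ± 0.15, adjusted p = 0.773). All 6 values of Ifit3 and all 6 of Ifit3b were fractional, so reads were shared out between genes there. The guanylate-binding protein genes differed by less than the spread between libraries. Gbp2, a GTPase that attacks the membranes around intracellular microbes, had 2.89, 3.33 and 4.84 CPM in PFF libraries and 4.01, 3.98 and 3.85 CPM in PBS libraries (−0.10 ± 0.22, adjusted p = 0.847). Gbp3, of the same family, had 14.7, 11.1 and 15.2 CPM in PFF libraries and 13.2, 14.1 and 15.6 CPM in PBS libraries (−0.07 ± 0.14, adjusted p = 0.829).

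MHC class I genes were higher in PFF cultures for 2 of the 8 genes of class I, its loading and Cd74 (25%), and none was lower at the same threshold. Over all genes tested 3.98% were higher and 2.6% lower. B2m encodes β2-microglobulin, the light chain that every class I molecule needs. It had 96.7, 98.6 and 109.8 CPM in PFF libraries and 78.2, 78.4 and 74.3 CPM in PBS libraries. The gap between the groups was wider than the spread within either of them, and the log2 fold change was 0.40 ± 0.08 (adjusted p = 0.00628). H2-D1, a classical class I heavy chain, had 24.4, 23.9 and 31.6 CPM in PFF libraries and 18.7, 15.4 and 18.0 CPM in PBS libraries, again with no overlap (0.62 ± 0.13, adjusted p = 0.009699). B2m and H2-D1 passed in all 14 alternative settings, with adjusted p of at most 0.0304 and 0.0491. Per kilobase of exon, B2m was at 118.3 RPKM in PFF and 89.5 RPKM in PBS libraries, and H2-D1 at 10.3 RPKM in PFF and 6.74 RPKM in PBS libraries (means), so B2m was the more abundant of the pair.

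H2-K1, the other classical heavy chain of the list, had 16.6, 17.3 and 17.4 CPM in PFF libraries and 12.99, 14.6 and 15.2 CPM in PBS libraries. Every PFF library lay above every PBS library, but the gene did not pass over all genes tested (0.26 ± 0.11, adjusted p = 0.1999). Class I heavy chain genes are close in sequence, and all 6 values of both H2-K1 and H2-D1 were fractional, so how their reads were divided affects both. The difference between the heavy chains in fold change was not tested. H2-D1 lies on chromosome 17 from 35262730 to 35267499, and B2m on chromosome 2 from 122147686 to 122153083.

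None of the genes for peptide loading, class I activation or the class II invariant chain passed. Tap1, a subunit of the peptide transporter, had 4.14, 4.11 and 4.75 CPM in PFF libraries and 6.17, 5.44 and 7.31 CPM in PBS libraries. All PFF libraries were below all PBS libraries, and the log2 fold change of Tap1 was −0.54 ± 0.18 (adjusted p = 0.0957). With the replicate number as a block it passed, at −0.54 ± 0.17 (adjusted p = 0.0464). Its partner Tap2 had 4.53, 5.29 and 7.22 CPM in PFF libraries and 5.96, 4.17 and 6.45 CPM in PBS libraries (0.04 ± 0.22, adjusted p = 0.941), and its groups overlapped. Tapbp, which encodes tapasin, the bridge between transporter and heavy chain, was at 33.2, 29.6 and 34.5 CPM in PFF libraries and 31.1, 29.8 and 36.1 CPM in PBS libraries (0.00 ± 0.10, adjusted p = 0.991). Nlrc5, the transcriptional activator of class I genes, had 2.12, 2.45 and 1.88 CPM in PFF libraries and 1.41, 1.75 and 0.770 CPM in PBS libraries. Its groups did not overlap, yet it did not pass (0.72 ± 0.32, adjusted p = 0.213). Cd74, the invariant chain of MHC class II, was near the detection limit in both groups, at 1.06, 0.979 and 0.989 CPM in PFF libraries and 1.73, 0.485 and 1.251 CPM in PBS libraries (−0.17 ± 0.42, adjusted p = 0.860).

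None of the receptor, transcription factor and sensor genes among the 43 passed. Of the receptor chains, Ifnar1 had 63.4, 68.8 and 64.4 CPM in PFF libraries and 56.9, 60.0 and 61.5 CPM in PBS libraries, which did not overlap (0.14 ± 0.08, adjusted p = 0.321). Ifnar2 had 14.5, 14.0 and 17.5 CPM in PFF libraries and 12.5, 12.1 and 15.6 CPM in PBS libraries, and its groups overlapped (0.19 ± 0.14, adjusted p = 0.456). Both chains were expressed in every library. Stat2, the transcription factor that carries the signal from the receptor together with IRF9, had 29.8, 23.3 and 23.6 CPM in PFF libraries and 34.4, 32.1 and 29.9 CPM in PBS libraries. The PFF values lay just below the PBS values (−0.33 ± 0.11, adjusted p = 0.100), and Stat2 passed as lower with the replicate number as a block (−0.34 ± 0.09, adjusted p = 0.0139) and without PFF replicate 1 (−0.46 ± 0.11, adjusted p = 0.0324). Irf9 had 17.2, 13.1 and 13.05 CPM in PFF libraries and 14.5, 12.4 and 8.95 CPM in PBS libraries (0.28 ± 0.17, adjusted p = 0.374). Irf3, which is switched on by nucleic acid sensors, had 16.5, 13.2 and 14.4 CPM in PFF libraries and 15.9, 13.1 and 13.8 CPM in PBS libraries (0.05 ± 0.13, adjusted p = 0.874). Irf1, a factor induced strongly by interferon gamma, had 5.88, 4.90 and 5.24 CPM in PFF libraries and 5.74, 5.44 and 6.16 CPM in PBS libraries (−0.11 ± 0.16, adjusted p = 0.746). The groups overlapped for Irf9, Irf3 and Irf1, and Irf7, the amplifier of type I interferon production, had at most 13 counts in a library and was not tested.

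Among the cytosolic sensors, Ifih1 encodes MDA5, which binds long double-stranded RNA. It had 2.99, 2.35 and 2.67 CPM in PFF libraries and 1.19, 1.65 and 1.73 CPM in PBS libraries. The groups did not overlap, and the log2 fold change was 0.79 ± 0.26 with an adjusted p of 0.0945. Ddx58, which encodes RIG-I, had 6.07, 6.27 and 5.83 CPM in PFF libraries and 5.74, 4.66 and 5.97 CPM in PBS libraries, with overlap (0.15 ± 0.17, adjusted p = 0.652). Zbp1, a sensor of Z-form nucleic acid, had at most 3 counts in any library.

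Of the remaining induced genes, Ifi27, a mitochondrial protein gene, had 9.54, 7.54 and 10.7 CPM in PFF libraries and 7.80, 6.31 and 7.60 CPM in PBS libraries (0.36 ± 0.17, adjusted p = 0.235). Ifi35 spread widely within PFF, at 0.578, 1.47 and 2.57 CPM, against 0.650, 1.07 and 1.35 CPM in PBS libraries (0.56 ± 0.47, adjusted p = 0.531). Cxcl10, the chemokine that draws T cells to sites of interferon signalling, had 2.22, 1.86 and 2.37 CPM in PFF libraries and 3.25, 2.14 and 2.69 CPM in PBS libraries (−0.32 ± 0.25, adjusted p = 0.507). In all 3 genes the groups overlapped.

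**Figure D3:**
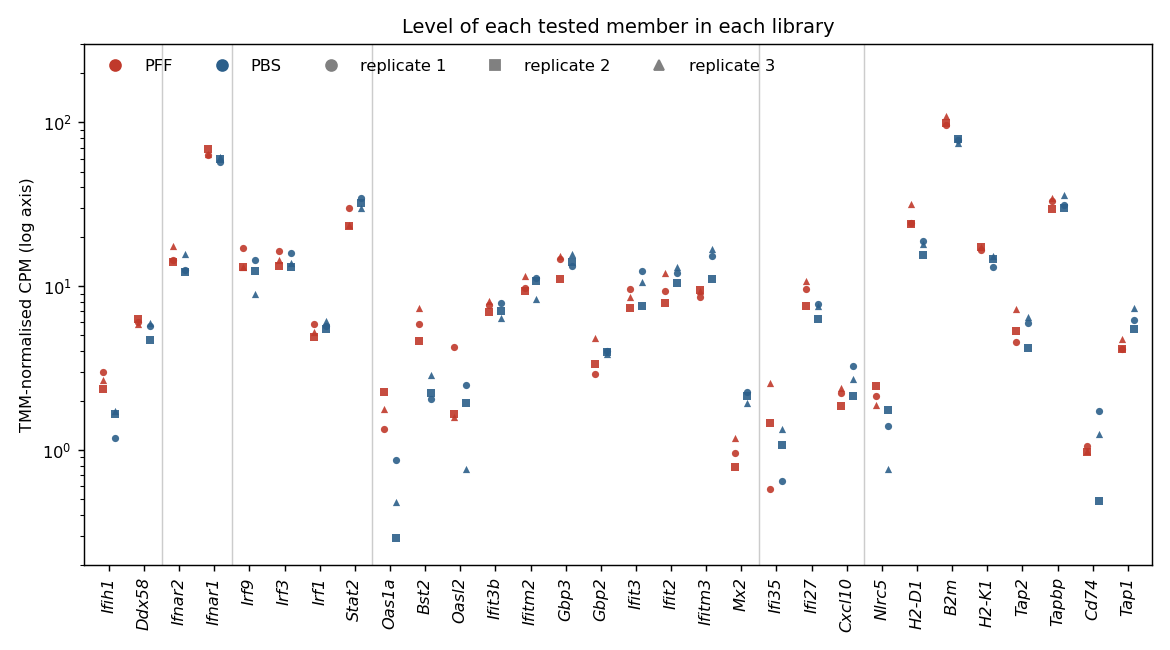
TMM-normalised CPM of the 30 tested genes in each of the 6 libraries on a log axis, ordered by role as in the plot of fold changes, with PFF to the left of PBS for each gene and replicates marked by shape. Levels run from 0.291 CPM (Oas1a, a PBS library) to 109.8 CPM (B2m, a PFF library), and the groups overlap for 18 of the 30 genes.

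Some of the best known interferon-stimulated genes, such as Isg15 and Rsad2, were close to the limit of detection in both groups. Others, such as Ifit2 and Ifit3, had enough counts in every library and did not pass. The 13 genes not tested were Zbp1, Irf7, Isg15, Usp18, Isg20, Ifit1, Oas2, Oas3, Mx1, Rsad2, Ifi44, Xaf1 and Rtp4. Their highest count in any library ranged from 2 (Oas2) to 18.9 (Ifit1). Isg15, the ubiquitin-like modifier, had 9, 7 and 3 counts in PFF libraries and 4, 8 and 2 counts in PBS libraries, and Usp18, the protease that removes it, had 6, 3 and 4 counts in PFF libraries and 6, 9 and 5 counts in PBS libraries. Rsad2, which encodes the antiviral enzyme viperin, had 11, 7 and 8 counts in PFF libraries and 9, 7 and 12 counts in PBS libraries. Differences in these genes were not detectable at this depth. Summed over the 13 genes, the level was 9.74, 5.97 and 4.35 CPM in PFF libraries and 7.15, 6.60 and 6.26 CPM in PBS libraries, and the PFF range enclosed the PBS range. All 13 were tested when no low-count filter was used, and none of them passed there.

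Other genes of the pathway were taken from a list of 149 symbols that excludes the 43, of which 146 were in the table and 79 were tested. Of the 79, 12 rose and none fell (15.2%), and the median log2 fold change was 0.09. Over all genes tested 3.98% rose and 2.6% fell, together 6.58%. With the replicate number as a block 17 rose and 1 fell, where 14.3% of all genes tested passed. With replicates 1 and 2 only 14 rose and 1 fell of 79 tested, where 2394 of all 13953 genes tested passed. The interferon genes themselves were not measurable: 18 of the 21 ligand genes had no count in any library, which allows up to 3 counts (0.289 to 0.325 CPM) per library, and the other ligands Ifnk, Ifnz and Ifng had at most 1.28 counts. In the signalling list 3 of 13 rose. They were the transcription factor genes Irf8 (10.6 ± 1.17 CPM in PFF, 3.65 ± 1.14 CPM in PBS, SD) and Irf5 (8.72 ± 0.709 CPM in PFF, 2.76 ± 1.29 CPM in PBS) and the cytokine receptor chain gene Il10rb (1.32 ± 0.19). In the sensing list 2 of 15 rose, the endosomal RNA receptor gene Tlr7 (1.73 ± 0.19) and the ubiquitin ligase gene Trim25 (0.83 ± 0.23), while Mb21d1 (cGAS), Tmem173 (STING) and Mavs had log2 fold changes of 0.31 ± 0.27, 0.33 ± 0.39 and 0.07 ± 0.13.

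In the effector list 6 of 37 tested genes rose. They were the Schlafen genes Slfn2 (1.67 ± 0.21) and Slfn5 (0.99 ± 0.25), the galectin gene Lgals9 (1.11 ± 0.28), the lysosomal thiol reductase gene Ifi30 (0.97 ± 0.18), Lgals3bp (0.45 ± 0.12) and Mnda (1.96 ± 0.39). No PBS library of Mnda reached the level of the low-count filter (0.325, 0.291 and 0.770 CPM), so this gene was tested because of its PFF libraries. Among 13 tested genes of class I, loading and the immunoproteasome, Calr alone rose (0.43 ± 0.08), which encodes the chaperone calreticulin. The immunoproteasome subunit gene Psmb8 did not pass (0.78 ± 0.31, adjusted p = 0.167). Of 8 MHC class II genes 1 was tested, H2-DMa, and it did not pass (0.01 ± 0.13, adjusted p = 0.985). Irf8, Irf5, Tlr7, Il10rb, Slfn2, Ifi30 and Mnda passed in every alternative setting in which they were tested. Without PFF replicate 2 those genes were the 7 that passed. Trim25, Lgals3bp, Slfn5 and Lgals9 also did not pass without PFF replicate 1, PBS replicate 2 or PBS replicate 3, with adjusted p of at most 0.177, 0.144, 0.137 and 0.117, and Calr did not pass without PBS replicate 1 or PFF replicate 2 (at most 0.0575). In DESeq2 the adjusted p was 0.0706 for Trim25, 0.0862 for Lgals3bp and 0.0946 for Slfn5, and Trim25 had 0.0549 with at least 50 counts in 3 libraries. In the same libraries 17 of 19 tested microglia markers were higher, and of 10 oligodendrocyte lineage markers 5 were higher and 5 lower. The share of these marker changes in the genes above was not tested.

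**Figure D4:**
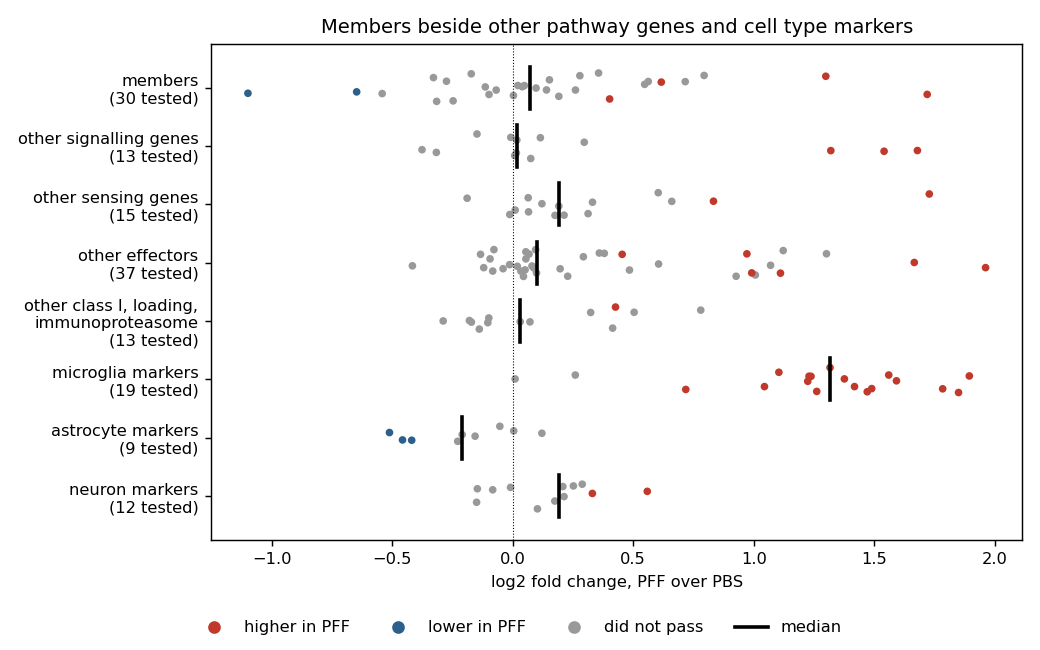
Log2 fold change, PFF over PBS, of each tested gene in the 43-gene set (members), in lists of other interferon and antigen presentation genes and in microglia, astrocyte and neuron marker lists, with the median as a black bar. The members centre on 0.07 and the microglia markers on 1.32.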

How the data were processed

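RNA sequencing of 3 PFF and 3 PBS libraries was analysed. Per the labels' protocols, libraries were made from total RNA with a strand-marking kit. The authors deposited estimated counts for each gene, 1 column per library with no scaling, and 8.69% of the values were not whole. Trim Galore 0.6.6, STAR 2.7.9a, DESeq2 1.38.3 and the build mm10 are listed in the submitters' processing notes, without a stated role. For the quantifier, the strand setting and the annotation, nothing is given in the sources used, so reads of paralogs and of overlapping genes may have been shared.

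Counts were rounded and analysed in R 4.3.3 with edgeR 4.0.16. The default filterByExpr rule removed 10492 genes, and 13919 were tested after TMM scaling by a robust two-sided quasi-likelihood F-test on the group alone. Benjamini-Hochberg adjustment ran over all genes tested, with a threshold of 0.05. The standard error is the fold change's size over the square root of F. A member is called tested where it passed that filter. RPKM used the merged exon length in GENCODE vM21. Steps were tested on simulated data. Alternatives were other scalings, filters and tests (DESeq2 1.42.0, limma-voom from limma 3.58.1), a replicate block, replicates 1 and 2 only, and each library left out. Counting the other pathway genes under these was added after seeing the data.

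Replicate numbers were checked for pairing: the deviations of same-numbered libraries from their group means correlated at 0.109, 0.126 and 0.239 for replicates 1, 2 and 3. All were over 0.1, so pairing by number was allowed for in the replicate block alternative. The labels do not state any pairing, and the main fit used the group alone. Whether the libraries were paired is not settled. PFF replicate 1 correlated more with PBS replicate 2 (0.154). Every tested member was named with its values, untested members by their highest counts, and other pathway genes where they passed. The members and lists were chosen with earlier results of these data known.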

Additional observations from a re-analysis of the deposited data

How the results depend on the processing

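Bst2, H2-D1 and B2m kept their direction and their call in every alternative in which they were tested, and Oas1a, Mx2 and Ifitm3 kept their direction, with 9 of 13, 7 of 13 and 10 of 14 alternatives passed. Over the libraries left out in turn, 3 to 6 of the 43 genes passed, 7 to 14 of the other pathway genes, and 412 to 1858 of all genes. With at least 50 counts in 3 libraries, 20 of the 43 were tested and 3 passed, since Bst2, Oas1a and Mx2 were no longer tested. In that setting 694 of all 11661 genes tested passed. With a replicate block 1997 genes passed (14.3%), and 8 of the 43, where Stat2 and Tap1 were added as lower and no other call among the 43 changed. With replicates 1 and 2 only 2394 of 13953 genes tested passed, and the same 6 of the 43, of which 31 were tested. The cause of these shifts in the count of all genes was not tested. Without a low-count filter 16 of 124 other pathway genes tested passed, 1 of them lower, beside 1132 of all 18964 genes tested. Scaling by library size only moved the median of all genes by 0.03. Among the 43, 10 genes had the other sign in 1 to 5 alternatives (Irf3, Ifit3b, Oasl2, Ifitm2, Gbp2, Gbp3, Ifi35, Tap2, Tapbp and Cd74), and 0 of these passed in any of the edgeR, DESeq2 or limma-voom fits. The 13 untested genes had at most 18.9 counts in a library, which limits what can be read from them.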

Other observations

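Low interferon-stimulated genes were highest in PFF replicate 1 for 5 of the 13 untested genes, namely Irf7, Isg15, Ifit1, Mx1 and Ifi44. PFF replicate 2 was highest for 2 (Oas2, Oas3), PBS replicate 1 for 1 (Xaf1), PBS replicate 2 for 3 (Usp18, Isg20, Rtp4) and PBS replicate 3 for 2 (Zbp1, Rsad2). The pattern was noticed in values of few counts and not tested. The share of all genes highest in each library was not computed, so these counts cannot be read as a trait of these genes. Irf7 had 13, 6 and 3 counts in PFF libraries 1, 2 and 3 and 7, 1 and 3 counts in PBS libraries 1, 2 and 3. Ifit1 had 18.9, 7 and 4 counts in PFF libraries and 7.90, 8.72 and 9.52 counts in PBS libraries. Mx1 had 9, 1 and 3 counts in PFF libraries and 4, 1.08 and 4 counts in PBS libraries. The tested gene Oasl2 was likewise highest there, at 4.24 CPM against 1.66 and 1.58 CPM in the other PFF libraries. PFF replicate 3 held the highest level of 11 of the 43 genes, among them B2m, H2-D1 and Bst2. PFF replicates 1 and 2 held that of 9 and 6, and PBS replicates 1, 2 and 3 that of 6, 3 and 8.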
